A study of Mus musculus with 2 samples.

Results

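Heterogeneous nuclear ribonucleoproteins (hnRNPs), related splicing regulators and factors that form the 3′ ends of messenger RNAs were examined in mouse embryonic fibroblasts (MEFs), a primary culture of connective tissue cells from minced embryos. The list held 41 genes, taken by name: 27 for hnRNP, PTB and PCBP proteins, 4 for CELF, MBNL and ELAVL proteins, and 10 for subunits of the cleavage and polyadenylation complexes. They were chosen with earlier results of these arrays known. Of the 41 genes, 40 had a probe set with a single gene symbol, out of 18193 such genes on the array. The exception was Hnrnpa3, which is reached by 4 probe sets that the annotation also gives to another gene, so no value is given for it.

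The RNA came from MEFs of a Malat1 knock-out mouse and of a wildtype mouse, both on the C57BL/6 strain and both prepared from embryos of day 13.5. Culture lasted 2 weeks, without treatment. Total RNA of each genotype was hybridized to 1 Affymetrix Mouse430_2 array, so there were 2 arrays in all and no replicates. No difference below therefore has a p-value or a replicate error, and the precision is limited by having 1 array of each kind. The sources used here do not say how many embryos or cultures went into each RNA sample.

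hnRNPs coat nascent transcripts as these leave RNA polymerase, and by binding exons and introns they block or help the use of splice sites. Many of them also act on export, stability and translation of the messenger RNA, and several adjust their own level through alternative splicing of their own transcripts. At the end of a gene, CPSF recognizes the poly(A) signal and cuts the transcript, CstF binds downstream of the cut, and CFIm binds upstream and influences which of several poly(A) sites is used. Malat1, the long noncoding RNA removed in the knock-out, is held in nuclear speckles, where splicing factors are stored.

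The brightest Malat1 probe set read 4.53 in the knock-out array and 9.80 in the wildtype array on the log2 scale, at least 20.6-fold lower in the knock-out. The arrays also differed in sex-linked transcripts. Xist read 11.49 in the knock-out and 4.50 in the wildtype, and the Y-linked Eif2s3y 2.81 in the knock-out and 8.57 in the wildtype, so genotype and the sex of the cells cannot be told apart. A probe set was taken as measured where its signal reached the array's own median (the floor), 5.44 for the knock-out and 5.39 for the wildtype, and each gene was represented by its brightest probe set. Across 11294 genes measured on both arrays the median log2 difference, knock-out minus wildtype, was -0.050. Its SD over these genes was 0.241. Probe sets of one gene share the RNA samples but may read different transcript forms. Their differences scattered around the gene's mean difference with a pooled SD of 0.199. The hybridization spike-ins, read by 18 probe sets, were lower on the knock-out array at every one, with a median of -0.23, and 18S ribosomal RNA was higher at 3 of 3 probe sets, by 0.47 to 0.67. The part of these shifts in the values below was not tested.

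Each of the 40 genes with a usable probe set reached the floor on both arrays. Their differences were small and leaned to lower signals in the knock-out array. Of the 40, 33 (82.5%) were lower in the knock-out array and 7 higher, against 59.8% lower among all genes measured and 62.7% among the 5466 genes at least as bright as the dimmest of the 40. The median difference of the 40 genes was -0.111, beside -0.050 for all genes measured and -0.051 for the equally bright genes. None of the 40 was 1.5-fold different in either direction at its brightest probe set, a size that 2.44% of all genes reached. At a smaller size of 0.322 log2 units, 3 genes (Syncrip, Hnrnpl and Raly) were lower in the knock-out array and 0 were higher, against 9.91% of all genes lower and 5.96% higher. Of these 3, Syncrip alone was past that size under the 3 other scalings and with a linear offset of 64. A difference of more than 0.199, the SD of probe sets around their gene's mean, was seen for 9 of the 40. These were Syncrip, Hnrnpl, Raly, Mbnl1, Cpsf1, Cstf2, Hnrnph1, Cpsf6 and Ptbp3, all lower in the knock-out. That is a share of 22.5% lower, beside 22.9% of all genes, while 0 of the 40 were higher by as much, beside 12.1% of all genes. Another 10 of the 40 were within 0.05 of 0. These counts hold for the values as deposited. Under the 3 other scalings Cpsf1, Cstf2, Cpsf6 and Ptbp3 fell within 0.199, at -0.18 to -0.14. Hnrnph1 ran from -0.21 to -0.16 under them.

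**Figure D1:**
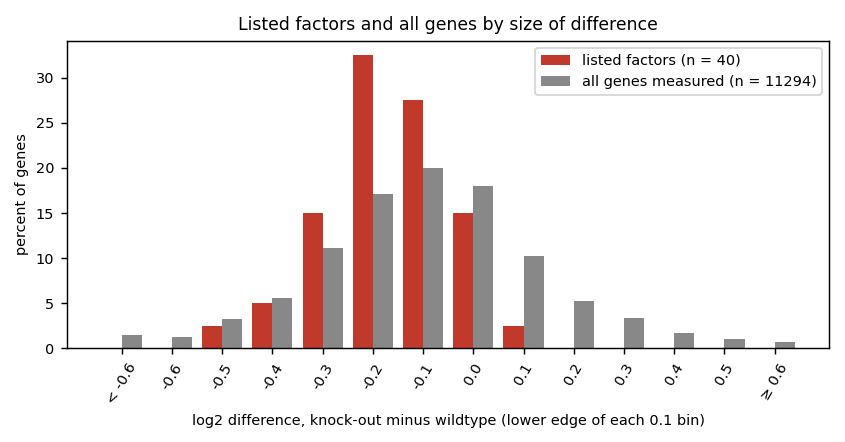
Percent of the 40 listed factors (red) and of all 11294 genes measured (grey) in bins of 0.1 of the log2 difference, knock-out minus wildtype. Of the 40 factors, 13 lie from -0.2 to -0.1 and 11 from -0.1 to 0, and none lies at or above 0.2 or below -0.5.

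The lean to lower signals depended in part on how the arrays were put on a common scale. With the arrays centred on the median of all measured probe sets, the median of the 40 genes was -0.049 and 27 of them were lower. After quantile normalization the median was -0.046 with 29 lower, and after loess centring, which removes a trend with brightness, it was -0.050 with 28 lower. The sign of 7 genes close to 0 (Hnrnpa0, Hnrnpdl, Hnrnpk, Ptbp2, Hnrnpul1, Mbnl2 and Cstf1) turned under at least 1 of these scalings. All genes together had medians of 0.011, 0.023 and 0.012 under these 3 scalings. Of all genes 47.6%, 44.8% and 47.4% were lower under them, beside 67.5%, 72.5% and 70.0% of the 40 genes. The gap between the 40 genes and all genes was -0.061 as deposited. Centring on the median moves every gene by the same amount, so it could not change that gap. After quantile normalization the gap was -0.069 and after loess centring -0.062.

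**Figure D2:**
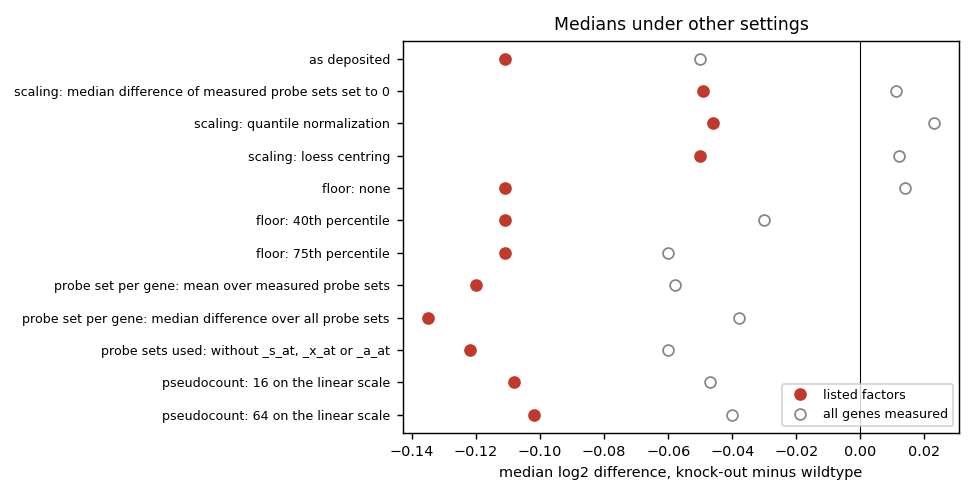
Median log2 difference (knock-out minus wildtype) of the listed factors (filled red) and of all genes measured (open grey), as deposited and under 11 other settings. The red points run from -0.135 to -0.046 and each lies left of the grey point of its row.

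The lean was not even over brightness. Of the 40 genes, 9 had a mean signal from 9 to 10, with a median difference of -0.16 beside -0.07 for all 1815 genes of that brightness. The 8 genes from 10 to 11 had a median of -0.15, beside -0.03 for 1116 genes, and the 9 genes from 11 to 12 a median of -0.12, beside 0.00 for 661 genes. The 8 genes from 12 to 13 had a median of -0.01, beside 0.02 for 298 genes, and the 5 genes from 8 to 9 one of -0.04, beside -0.10 for 2283 genes. The medians furthest below those of all genes thus lay at middle brightness.

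**Figure D3:**
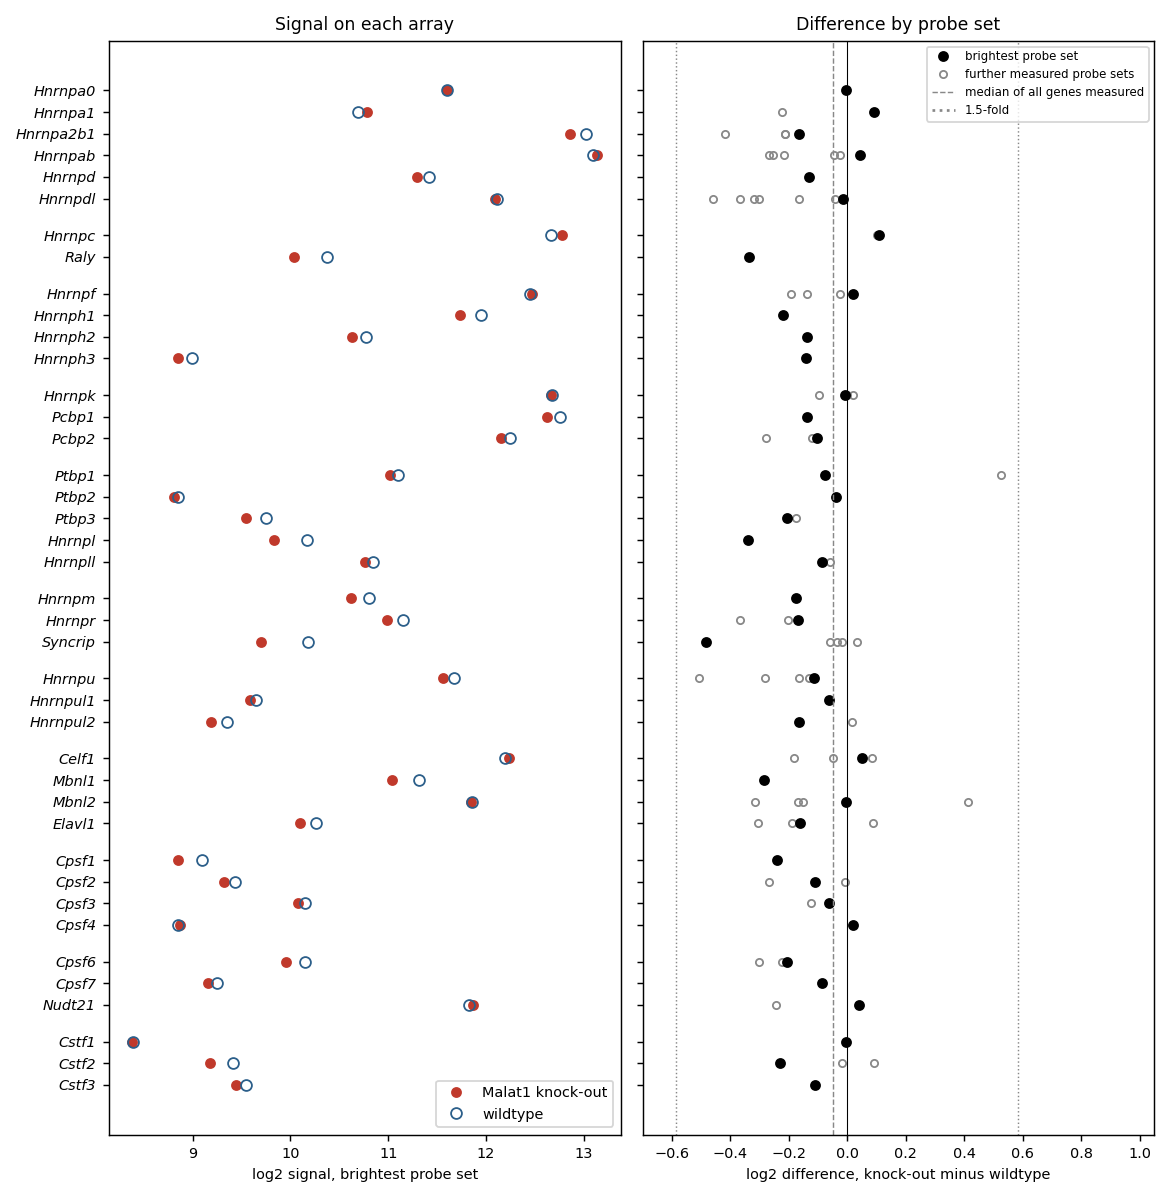
Left, log2 signal of the brightest probe set of each gene on the knock-out array (filled red) and the wildtype array (open blue), with signals of different probe sets not comparable to each other. Right, log2 difference of the brightest probe set (black) and of further measured probe sets (grey), with dotted lines at 1.5-fold and a dashed line at the median of all genes, -0.050. Most black points lie left of 0, and Syncrip, Hnrnpl and Raly are the farthest left.

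The A/B- and D-type hnRNPs carry paired RNA recognition motifs and include the most abundant hnRNPs of most cells. At the brightest probe sets they sat close to 0, with a median of -0.010 over 6 genes (0.00 to 0.05 under other scalings). As deposited, 4 of the 6 were lower in the knock-out array. The closeness to 0 depended on the probe set. With the mean over measured probe sets Hnrnpa2b1 was -0.25, Hnrnpdl -0.24, Hnrnpab -0.13, Hnrnpd -0.13, Hnrnpa1 -0.07 and Hnrnpa0 0.00. Hnrnpa2b1, whose proteins package nascent RNA and bind transport signals in messenger RNAs, read 12.86 in the knock-out and 13.02 in the wildtype at its brightest probe set. Its other 3 probe sets were lower in the knock-out too, and the 4 together spanned -0.42 to -0.16. Hnrnpa1, a repressor of exon inclusion, read 10.78 in the knock-out and 10.69 in the wildtype, and its second probe set 10.21 in the knock-out and 10.43 in the wildtype. The probe sets of Hnrnpa1 thus disagreed in direction, and the brighter is of a kind (ending in _x_at) that can pick up related sequences, of which this gene has several processed copies. The remaining Hnrnpa1 probe set was under the floor in the knock-out, at 5.40, and read 6.31 in the wildtype, at least 1.83-fold lower.

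Hnrnpa0 read 11.60 on both arrays. Hnrnpd, which binds AU-rich elements and affects messenger RNA decay, read 11.29 in the knock-out and 11.42 in the wildtype. Hnrnpab read 13.14 in the knock-out and 13.09 in the wildtype, and its other 5 measured probe sets were lower in the knock-out, down to -0.27. Hnrnpdl, a close relative of Hnrnpd, showed the widest disagreement of this set. Its brightest probe set read 12.09 in the knock-out and 12.11 in the wildtype, and the next 10.30 in the knock-out and 10.34 in the wildtype. The other 5 Hnrnpdl probe sets were lower in the knock-out, by -0.17 to -0.46. The largest of these differences came from a probe set that read 8.99 in the knock-out and 9.45 in the wildtype. All 7 probe sets of Hnrnpdl were lower in the knock-out array as deposited, though the brightest turned to as much as 0.05 under other scalings.

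The C-type proteins bind uridine tracts. Hnrnpc, which forms the particle around which long nascent transcripts are wound, had the most positive difference of the 40 genes. It read 12.78 in the knock-out and 12.67 in the wildtype (0.11 higher), and its second probe set 9.31 in the knock-out and 9.21 in the wildtype. Both probe sets gave the same small difference, 0.10 to 0.11. Raly, a relative of Hnrnpc, lay at the other end, with 10.04 in the knock-out and 10.37 in the wildtype, 1.26-fold lower (-0.28 to -0.27 on the log2 scale under other scalings). Its only other probe set was under the floor on both arrays.

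The F/H-type proteins bind runs of guanines near exons and poly(A) sites. Their median was -0.140, with 3 of 4 lower in the knock-out. Hnrnph1 read 11.73 in the knock-out and 11.95 in the wildtype, and its second probe set also differed by -0.22. Hnrnph2, which is X-linked, read 10.63 in the knock-out and 10.77 in the wildtype. Hnrnph3 read 8.85 in the knock-out and 8.99 in the wildtype, the same difference of -0.14. Hnrnpf read 12.47 in the knock-out and 12.45 in the wildtype, while its other 3 probe sets were lower in the knock-out by up to -0.19. Hnrnph1 had the largest difference of the 4 genes at the brightest probe set.

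The poly(C)-binding proteins with KH domains were all slightly lower or level. Hnrnpk, which binds C-rich RNA and DNA, read 12.67 in the knock-out and 12.68 in the wildtype, and its 4 probe sets spanned only -0.10 to 0.02. Pcbp1 read 12.62 in the knock-out and 12.76 in the wildtype, and Pcbp2, its close relative, 12.15 in the knock-out and 12.25 in the wildtype. All 3 Pcbp2 probe sets were lower in the knock-out, down to -0.28.

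PTB proteins bind pyrimidine tracts and repress exons, and hnRNP L and its relative bind CA-rich RNA. All 5 genes were lower in the knock-out at the brightest probe set, except for Ptbp2 under other scalings, with a median of -0.085. Hnrnpl read 9.83 in the knock-out and 10.17 in the wildtype, 1.27-fold lower (-0.28 on the log2 scale under other scalings), and had no other measured probe set. Hnrnpll, known for splicing of the leukocyte antigen CD45 in T cells, read 10.76 in the knock-out and 10.84 in the wildtype. The related Hnrnpl and Hnrnpll thus differed in size, and Hnrnpll was within 0.09 of level at both of its probe sets.

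Ptbp1, the form found in most cells, read 11.02 in the knock-out and 11.10 in the wildtype. A second Ptbp1 probe set read 8.95 in the knock-out and 8.43 in the wildtype, 0.53 higher, which was the most positive difference of any measured probe set of the listed genes. The direction for Ptbp1 therefore turned with the probe set. Ptbp2, the form typical of neurons, read 8.81 in the knock-out and 8.85 in the wildtype. Ptbp3 read 9.55 in the knock-out and 9.75 in the wildtype, and its second probe set differed by -0.18. The sign for Ptbp2 turned under other scalings (0.02 to 0.06) and that for Ptbp3 did not (-0.14).

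hnRNP M, R and Q (the product of Syncrip) had the lowest median of any subgroup, -0.175 over 3 genes. Syncrip, which acts on stability and transport of messenger RNAs, had the largest difference of the 40 genes, with 9.70 in the knock-out and 10.18 in the wildtype, 1.40-fold lower. Its other 4 probe sets differed by -0.06 to 0.03, and one of them read 9.70 in the knock-out and 9.67 in the wildtype. The difference of Syncrip was therefore seen at 1 of 5 probe sets, and the mean over all 5 was -0.11. Hnrnpr, the close relative of Syncrip, read 10.99 in the knock-out and 11.15 in the wildtype, and its 3 measured probe sets were all lower in the knock-out, by -0.37 to -0.17. Hnrnpm read 10.62 in the knock-out and 10.80 in the wildtype at its only probe set.

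The U-type hnRNPs were lower in the knock-out in 3 of 3 cases as deposited, with Hnrnpul1 at 0.00 to 0.01 under other scalings. Hnrnpu, which binds chromatin and RNA and is needed to hold Xist RNA on the inactive X chromosome, read 11.56 in the knock-out and 11.67 in the wildtype. All 5 Hnrnpu probe sets were lower in the knock-out. The dimmest pair read 7.05 in the knock-out against 7.34 and 7.56 in the wildtype, so the differences ran from -0.51 to -0.12. Hnrnpul1 read 9.59 in the knock-out and 9.65 in the wildtype. Hnrnpul2 read 9.19 in the knock-out and 9.35 in the wildtype, while its second probe set was 0.02 higher in the knock-out.

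CELF1 and the muscleblind (MBNL) proteins act on opposite sides of many developmental splicing switches, and ELAVL1 (HuR) stabilizes transcripts with AU-rich elements. Mbnl1 read 11.04 in the knock-out and 11.32 in the wildtype, 1.22-fold lower. Mbnl2 read 11.85 in the knock-out and 11.86 in the wildtype, and its other 4 measured probe sets spanned -0.32 to 0.41. Celf1 read 12.24 in the knock-out and 12.19 in the wildtype, and 2 of its 4 measured probe sets were lower. Elavl1 read 10.10 in the knock-out and 10.26 in the wildtype, with 3 of 4 measured probe sets lower. Of these 4 regulators, Mbnl1 alone differed at its brightest probe set by more than the spread between probe sets.

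The 10 genes for 3′ end factors had a median of -0.099, with 8 lower in the knock-out and 0 past 0.322 in either direction. In CPSF, Cpsf1, the scaffold subunit, read 8.85 in the knock-out and 9.09 in the wildtype at its only probe set. Cpsf2 read 9.32 in the knock-out and 9.43 in the wildtype. Cpsf3, the endonuclease that cuts the transcript, read 10.08 in the knock-out and 10.15 in the wildtype. Cpsf4, which contacts the poly(A) signal, read 8.87 in the knock-out and 8.85 in the wildtype. The 4 subunits thus ran from -0.24 to 0.02, with Cpsf1 the farthest from level.

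In CFIm, the 3 subunits did not share a direction. Cpsf6, one of the larger subunits, read 9.95 in the knock-out and 10.15 in the wildtype. All 3 measured Cpsf6 probe sets were lower, by -0.30 to -0.21, and another read 5.43 in the knock-out, just under the floor, and 5.58 in the wildtype. Cpsf7, which can take the place of Cpsf6 in the complex, read 9.16 in the knock-out and 9.25 in the wildtype. Nudt21, the small subunit that binds RNA, read 11.87 in the knock-out and 11.83 in the wildtype, but its second measured probe set read 8.27 in the knock-out and 8.52 in the wildtype.

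In CstF, Cstf2, the X-linked subunit that binds the downstream element, read 9.18 in the knock-out and 9.41 in the wildtype. Its other 2 probe sets differed by -0.02 and 0.09, so the difference was seen at 1 of 3. Cstf3, the scaffold of the complex, read 9.44 in the knock-out and 9.55 in the wildtype. Cstf1 read 8.38 in the knock-out and 8.39 in the wildtype. With Hnrnph2, Cstf2 is 1 of 2 X-linked genes among the 40. Both were lower in the knock-out array, which had the Xist signal, as were 33 of the 40 genes and 59.8% of all genes measured.

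Probe sets of one gene were then compared over the whole list. Of 123 probe sets for the 40 genes, 97 reached the floor on both arrays, 4 did so in the wildtype only, 0 in the knock-out only, and 22 were below it throughout. Of the 97, 80 (82.5%) were lower in the knock-out, against 61.7% of all 19178 measured probe sets with 1 symbol. None of the 97 passed 1.5-fold, against 2.93% of all, and 8 were lower and 2 higher by at least 0.322, against 12.1% of all lower and 5.52% higher. The 4 that reached the floor in the wildtype alone belonged to Hnrnpa1, Hnrnpab, Hnrnpd and Cpsf6. Over all 34945 probe sets with 1 symbol, 2.01% reached it in the knock-out alone and 1.73% in the wildtype alone. Among 24 genes with several measured probe sets, 11 (Hnrnpa2b1, Hnrnpdl, Hnrnph1, Pcbp2, Ptbp3, Hnrnpll, Hnrnpr, Hnrnpu, Cpsf2, Cpsf3 and Cpsf6) had all of them lower, 1 (Hnrnpc) had all higher and 12 had a probe set that did not go with the others. Over all 4881 genes with several measured probe sets, 41.8% had all of them lower.

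Dimmer probe sets of the listed genes tended to give lower differences than the brightest one of the same gene. Of 57 further probe sets, 40 (70.2%) had a lower difference than the brightest, against 55.3% of 7881 further probe sets of all genes. The median of that gap was -0.060 for the listed genes and -0.026 for all genes. After loess centring the shares were 65.5% and 56.0%, and the median gaps -0.042 and -0.029. The gap was wide at Hnrnpdl (-0.44), Hnrnpu (-0.39), Hnrnpa1 (-0.32), Hnrnpab (-0.31), one Mbnl2 probe set (-0.31) and Nudt21 (-0.29). It ran the other way at Ptbp1 (0.60), Syncrip (0.42 to 0.51), another Mbnl2 probe set (0.42) and one of Cstf2 (0.32). These probe sets are not independent, since those of one gene share a transcript and an RNA sample. Which transcript forms each of them reads was not analysed here.

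**Figure D4:**
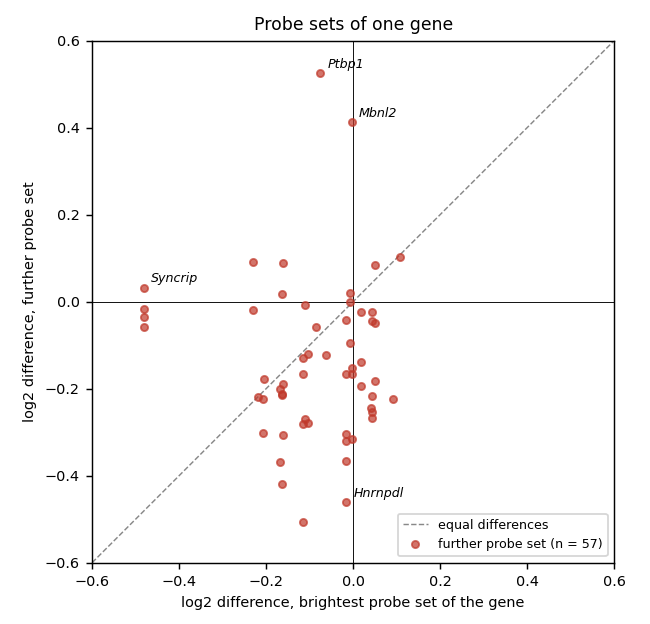
Log2 difference (knock-out minus wildtype) of each of 57 further measured probe sets against that of the brightest probe set of the same gene, with the dashed line where both are equal. More points lie below the line (40) than above it, and Ptbp1, Mbnl2, Syncrip and Hnrnpdl lie far from it.

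Other genes of the pathway were compared from 3 lists. Of all genes measured 59.8% were lower in the knock-out, with a median of -0.050. Of 13 other cleavage and polyadenylation factors, 10 were lower in the knock-out and 3 higher, with a median of -0.041 that lay from 0.00 to 0.02 under other scalings. Rbbp6, a ubiquitin ligase of the cleavage complex, read 8.45 in the knock-out and 8.87 in the wildtype. Sympk, the scaffold symplekin, read 8.73 in the knock-out and 9.03 in the wildtype, and the phosphatase subunit gene Ppp1cb 11.26 in the knock-out and 11.55 in the wildtype. The poly(A) polymerase gene Papola (10.01 in the knock-out and 10.02 in the wildtype) and the nuclear poly(A)-binding protein gene Pabpn1 (13.30 in the knock-out and 13.32 in the wildtype) were level.

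Of 23 measured genes for other splicing regulators, 18 were lower in the knock-out and 5 higher, with a median of -0.107. Under other scalings that median was -0.05 to -0.02. The RNA-binding protein gene Khdrbs3 read 8.60 in the knock-out and 9.05 in the wildtype, Khsrp 9.58 in the knock-out and 9.90 in the wildtype, and Pcbp4, a relative of Pcbp1, 10.26 in the knock-out and 10.58 in the wildtype. Of 28 measured genes of the core spliceosome, 24 were lower and 4 higher, with a median of -0.076 (-0.03 to -0.02 under other scalings). Of all genes measured 59.8% were lower. The core protein gene Snrpb was 0.21 higher in the knock-out, and Sf3b2 and Prpf8 were lower by -0.22 and -0.21. None of the 64 genes of these 3 lists was 1.5-fold different. As deposited, the medians of the 3 lists ran from -0.041 to -0.107. Beside them stand -0.123 for the hnRNP, PTB and PCBP genes, -0.099 for the listed 3′ end genes and -0.082 for the CELF, MBNL and ELAVL genes.

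**Figure D5:**
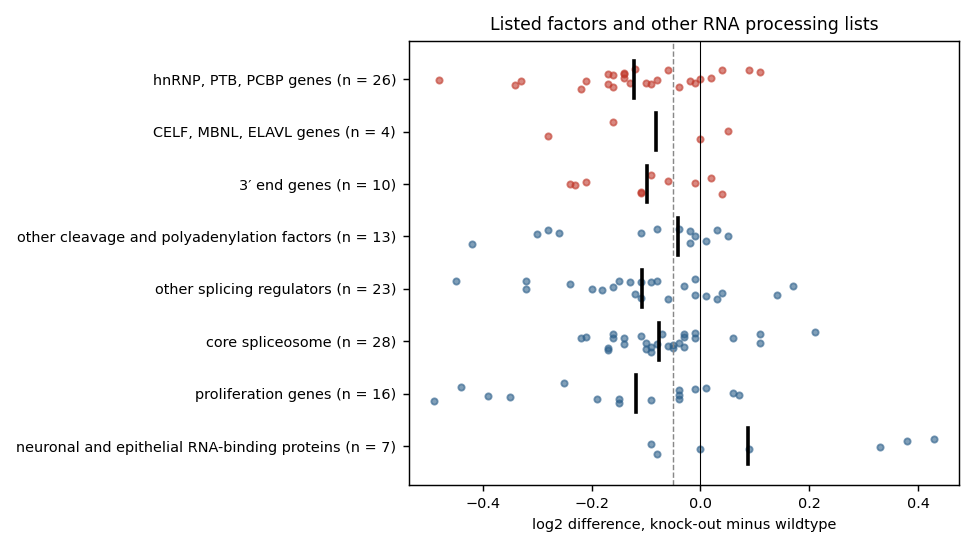
Log2 difference (knock-out minus wildtype) of each gene at its brightest probe set, for the listed factors in 3 groups (red) and for 5 other lists (blue), with black bars at each list's median and a dashed line at the median of all genes. The 3 red medians run from -0.123 to -0.082, and neuronal and epithelial RNA-binding proteins have the only median above 0, at 0.087.

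Markers of cell state and of other cells were set beside these values, since bulk RNA cannot tell fewer cells of a type from less RNA per cell. For the counts below, 59.8% of all genes measured were lower in the knock-out. Each summed signal below runs over all genes of its list with a probe set, also those under the floor. These were 17 proliferation, 13 fibroblast, 12 macrophage and leukocyte, 14 epithelial, 10 endothelial, 10 neural and 10 skeletal muscle genes. Of 16 measured proliferation genes 13 were lower in the knock-out, with a median of -0.119, close to that of the listed factors, and the summed linear signal of the list was 24341 in the knock-out and 25767 in the wildtype. All 13 fibroblast markers reached the floor on both arrays, and 9 were lower in the knock-out (summed signal 86547 in the knock-out and 98049 in the wildtype). Col1a1 read 11.76 in the knock-out and 12.71 in the wildtype, Pdgfra 7.47 in the knock-out and 8.20 in the wildtype, and Dcn 8.77 in the knock-out and 8.02 in the wildtype, while Vim was level at 14.30 in the knock-out and 14.25 in the wildtype. Of 11 measured macrophage and leukocyte markers 8 were lower (3615 in the knock-out and 4417 in the wildtype). Of 7 measured epithelial markers 6 were higher (1769 in the knock-out and 1365 in the wildtype), with Cdh1 under the floor on both arrays, and 5 of 5 endothelial markers were higher (1638 in the knock-out and 1137 in the wildtype), with Pecam1, Cdh5 and Vwf under it. Neural markers had 4 of 7 lower (3740 in the knock-out and 3768 in the wildtype) and skeletal muscle markers 2 of 5 lower (3756 in the knock-out and 3298 in the wildtype). The part of cell mix or growth in the differences of the RNA-binding factors was not tested.

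RNA-binding proteins typical of neurons or epithelia had a median on the other side of 0 from the listed factors. Of 14 such genes 7 were measured on both arrays, 4 of them higher in the knock-out and 2 lower, and that median was 0.087. These 7 were dimmer than every listed factor, the dimmest of which had a mean signal of 8.39. All genes had medians of -0.01 at a mean signal of 6 to 7, -0.11 at 7 to 8 and -0.10 at 8 to 9. The 7 genes were not compared with equally bright genes. The neuronal regulators Rbfox1 and Rbfox3 read 7.73 and 6.64 in the knock-out and 7.31 and 6.26 in the wildtype. Celf3 read 5.97 in the knock-out and 5.64 in the wildtype, near the floor. The neuronal genes Elavl3, Elavl4 and Nova2 and the epithelial gene Esrp1 were under the floor on both arrays.

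The promoters at both ends of the range are shown. At the brightest probe set Syncrip, Hnrnpl and Raly had the lowest signals relative to the wildtype and Hnrnpc the highest. The other Syncrip probe sets differed by only -0.06 to 0.03. Each runs 5′ to 3′ from 250 bases before to 50 bases after the annotated start in RefSeq (build GRCm38.p6), with capitals at the letters CCAAT (the motif of NF-Y), GGGCGG (the Sp1 family motif), CACGTG (an E-box), CCGGAAGT (an ETS motif) and TATAAA (the motif of the TATA-binding protein), searched on both strands with overlaps counted.
Syncrip, chr9:88482348-88482647, minus strand: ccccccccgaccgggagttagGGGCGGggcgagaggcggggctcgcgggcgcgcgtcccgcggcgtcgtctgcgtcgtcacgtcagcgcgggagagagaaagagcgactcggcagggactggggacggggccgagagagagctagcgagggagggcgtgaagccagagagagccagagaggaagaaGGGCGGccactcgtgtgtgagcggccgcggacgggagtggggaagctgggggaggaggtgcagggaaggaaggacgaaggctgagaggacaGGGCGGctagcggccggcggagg
Hnrnpl, chr7:28810640-28810939, plus strand: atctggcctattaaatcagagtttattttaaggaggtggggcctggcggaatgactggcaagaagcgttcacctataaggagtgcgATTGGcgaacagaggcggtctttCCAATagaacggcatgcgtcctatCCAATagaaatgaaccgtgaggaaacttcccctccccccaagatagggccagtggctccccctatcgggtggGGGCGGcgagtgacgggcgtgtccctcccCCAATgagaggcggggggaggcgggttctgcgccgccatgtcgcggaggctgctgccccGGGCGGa
Raly, chr2:154790860-154791159, plus strand: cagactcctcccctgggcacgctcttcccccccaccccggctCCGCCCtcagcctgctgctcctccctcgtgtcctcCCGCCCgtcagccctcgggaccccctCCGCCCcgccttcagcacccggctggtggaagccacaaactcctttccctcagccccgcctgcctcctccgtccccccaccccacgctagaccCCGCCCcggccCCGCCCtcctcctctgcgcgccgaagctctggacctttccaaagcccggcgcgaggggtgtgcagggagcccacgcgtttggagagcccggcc
Hnrnpc, chr14:52103972-52104271, minus strand: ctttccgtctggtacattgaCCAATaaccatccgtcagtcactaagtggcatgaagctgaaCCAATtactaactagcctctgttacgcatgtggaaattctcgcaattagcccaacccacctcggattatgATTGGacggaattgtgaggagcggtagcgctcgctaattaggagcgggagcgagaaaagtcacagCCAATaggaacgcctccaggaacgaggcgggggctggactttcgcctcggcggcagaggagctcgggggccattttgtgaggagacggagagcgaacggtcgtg

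Hnrnpl, among the lowest genes, and Hnrnpc, the highest, each held 4 matches to CCAAT, while Syncrip and Raly held 0. GGGCGG was found 3 times at Syncrip, 2 at Hnrnpl and 5 at Raly, and 0 times at Hnrnpc. No match to the other 3 motifs was found in these 4 windows. Promoter windows were at hand for 37 of the 41 listed genes. The 27025 genes set beside them are all genes with a window, not only the 11294 measured on both arrays. The measured genes alone were not compared. GGGCGG stood in the windows of 28 of these 37 genes (75.7%, against 38.2% of 27025 genes), CCAAT in 19 (51.4% against 41.1%), CACGTG in 9 (24.3% against 8.1%), CCGGAAGT in 7 (18.9% against 4.3%) and TATAAA in 3 (8.1% against 15.7%). The windows were rich in G and C, with a median of 67.3% and 32 CpG pairs, against 53.3% and 8 for the 27025 genes. These medians take each gene's highest value over its windows. Motifs made of these letters are commoner in such sequence. A match is a run of letters and does not show binding.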

How the data were processed

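Per the labels' protocols, 100 ng of Trizol-extracted total RNA was amplified and labelled with biotin by 3′ in vitro transcription. The values the authors deposited, 1 for each probe set on each array, were read as log2 signals. Their range (2.09 to 14.71) is the basis for that scale, and the sources used here do not name the summarization, normalization or software. Of 45037 non-control probe sets, 34945 had a single symbol in the platform annotation, checked through gene identifiers against RefSeq (GRCm38.p6) with 0 symbols altered. Another 932 with several symbols were not used. Control probe sets were kept out of gene values.

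A gene was represented by its 1-symbol probe set with the highest mean. Counts used fixed sizes of 1.5-fold and of 0.322 log2 units, and no test was made, with 1 array per genotype. The calculation was checked on simulated data. Every listed factor was named with its values, and up to 3 genes of other lists with the largest difference, besides a few named for their role. Members and lists were chosen with earlier results of these data known. The alternatives were 3 scalings, other floors, other ways to combine probe sets, linear offsets of 16 and 64, and other sizes. Python 3.11.15, pandas 2.3.3 and statsmodels 0.14.6 (loess, span 0.3) were used.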

Additional observations from a re-analysis of the deposited data

How the results depend on the processing

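No paired analysis was possible because neither array has a replicate. As deposited, the median difference of the 40 genes was -0.111. It moved to -0.049 with the arrays centred on the median of all measured probe sets, to -0.046 after quantile normalization and to -0.050 after loess centring, and stayed from -0.135 to -0.102 under the other 8 alternatives. In each of the 11 alternatives it was negative and below the median of all genes. The other floors could not change the median of the 40 genes, since all 40 stayed measured. Linear offsets could change it little in genes this bright. The number of genes lower in the knock-out was 27 to 37 of 40 (67.5% to 92.5%), beside 44.8% to 64.9% of all genes. Without probe sets ending in _s_at, _x_at or _a_at it was 28 of 32 (87.5%), beside 61.4% of all genes. The count past 1.5-fold was 0 in every alternative and 0 at a size of 2-fold, and 3 at 0.322 log2 units (Syncrip, Hnrnpl and Raly). At that smaller size 1 gene (Syncrip) was left under each of the 3 scalings and with the offset of 64, 2 (Hnrnpl and Raly) with the mean over measured probe sets and 2 others (Cpsf7 and Cstf3) with the median over all probe sets. Hnrnpl and Raly have 1 measured probe set each, so that mean could not change them. The median over all probe sets takes in those under the floor. For Cpsf7 and Cstf3 these read -0.95 and -0.71, beside -0.09 and -0.11 at the measured probe set. Without the 3 probe set types 4 genes were lower (Hnrnpa2b1, Hnrnpdl, Hnrnpl and Syncrip) and 1 higher (Ptbp1).

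Values of single genes could not move under the other floors and could move little under the linear offsets. Of 432 values of single genes under the alternatives, these settings included, 416 moved by less than 0.199, the spread of probe sets around their gene's mean. The other 16, for 12 genes, came from other choices of probe set. Among them Ptbp1 was 0.22 with the mean over measured probe sets and 0.53 without the 3 probe set types, and Syncrip was -0.11 and -0.04 with the mean and the median over its probe sets. The sign of 7 genes turned under a scaling. With the mean over measured probe sets the sign of 6 genes turned: Hnrnpa1, Hnrnpab, Hnrnpf, Celf1 and Nudt21 became lower and Ptbp1 higher. It turned for 4 genes with the median over all probe sets and for 3 without the 3 probe set types. Of 5 genes whose brightest probe set ends in _x_at, 3 were higher as deposited. The comparison with equally bright genes and the loess comparison of further probe sets were added after seeing the data. Each gene rests on 1 array per genotype, so the difference between cultures of one genotype is unknown.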
